A study of Mus musculus with 4 samples.

Results

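Acsl1, Acsl3, Acsl4, Acsl5 and Acsl6 encode the long-chain acyl-CoA synthetases of the mouse, and Acot1, Acot2, Acot7, Acot9 and Acot13 encode acyl-CoA thioesterases. Their transcripts were measured in C2C12 myoblasts with and without palmitate. These 10 genes were found through the RefSeq accessions of the probes on the 4 arrays, which gave them 12 of 39429 gene probes. A probe was tested if it stood well above background in the control or the palmitate channel of every array, and 11 of the 12 probes and all 10 genes met this, among 24169 probes and 13705 named genes of the whole series. The genes were set by family and name, and no measured value enters the rule, but earlier results of these data were known. The thioesterases are a part of their family, and other Acot genes are read below in a separate list.

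Long-chain acyl-CoA synthetases join a free fatty acid to coenzyme A at the expense of ATP, which is the step that any fatty acid entering a muscle cell must pass before it can be oxidised, elongated or built into lipids. Acyl-CoA thioesterases run the opposite step and release the free fatty acid and coenzyme A. The members of both families lie on different membranes or in different compartments and prefer different chain lengths, so the balance between them is set locally in the cytosol, the mitochondria and the endoplasmic reticulum. Several thioesterase genes and Acsl1 are known targets of the fatty acid sensing PPAR receptors.

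C2C12 is a mouse satellite cell line from thigh muscle. Proliferating myoblasts received palmitate at 0.1 mmol/l for 48 h in DMEM with 5% FBS, and control cultures received the ethanol and the fatty-acid-free albumin of the palmitate medium. Cells of both groups were on day 3 of proliferation, no group carried a genetic change, and the labels describe 4 biological replicates. Each array of a single slide held 1 control culture in cyanine-3 and 1 palmitate culture in cyanine-5, so that palmitate and dye cannot be told apart in any ratio. The protocol gives 5% FBS for both media, whereas the control label names 10% HS, and a serum difference could then not be told apart from palmitate either. Fewer cells that contain a transcript and less of it per cell cannot be told apart in such bulk RNA.

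Between 57.6% and 64.0% of gene probes were well above background in the control channel of an array, and between 61.9% and 70.7% in the palmitate channel. Replicate 1 stood apart from the other arrays, because its log2 ratios over all tested probes correlated at -0.075 with the mean of the other arrays, while replicates 2 to 4 correlated with each other at 0.68 to 0.77. The means of the 10 genes without replicate 1 are therefore given beside those over all arrays. Because replicate 1 was singled out by these same ratios, the p-values without it are descriptions and no independent test. The reference gene Rpl13a had a log2 ratio of -0.017 ± 0.12 (SD, n = 4 arrays), and Angptl4, a secreted inhibitor of lipoprotein lipase that fatty acids induce, had 1.48 ± 0.24 (SD, n = 4), with an adjusted p in limma of 0.108. Of 6 myoblast markers, 4 were well above background on all 4 control arrays (Myod1, Myf5, Des and Cdh15). Of 6 markers of differentiating muscle, 5 were so. Myog, Myh3 and Tnnt1 had log2 ratios of 0.30, 0.32 and 0.31, with adjusted p of 0.141, 0.150 and 0.162 in limma, whereas Acta1, Mymk and Ckm lay below 0, at -0.078, -0.059 and -0.057. The summed intensity of the 6 differentiation markers was 14360 to 16330 in control and 13110 to 17410 in palmitate cultures, and their part in the values below was not tested. Of the genes of other cell types, endothelial Pecam1 was well above background on all arrays, and leukocyte Ptprc on 2 control and 3 palmitate arrays. The hepatocyte genes Alb and Apoa1, the endothelial gene Cdh5 and the adipocyte genes Adipoq, Lep and Plin1 were above background on no array. The fourth adipocyte gene, Cidec, was so on 0 control and 4 palmitate arrays, with a log2 ratio of 0.042 ± 0.052 (SD, n = 4).

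The stretches of 250 bases before the annotated start of Acsl4, Acot9, Acot2 and Acot1 are printed because Acsl4 and Acot9 had the highest ratios of their families, and because Acot2 and Acot1 are neighbours on chromosome 12 that encode near-identical enzymes. They come from RefSeq promoters of GRCm38.p6 and are written 5′ to 3′ on the strand of the gene, and capitals mark the GC box GGGCGG or its reverse complement CCGCCC. The Acsl4 stretch is chrX:142390536-142390785 on the minus strand, the Acot9 stretch chrX:155262193-155262442, the Acot2 stretch chr12:83987611-83987860 and the Acot1 stretch chr12:84009252-84009501, these on the plus strand.
Acsl4: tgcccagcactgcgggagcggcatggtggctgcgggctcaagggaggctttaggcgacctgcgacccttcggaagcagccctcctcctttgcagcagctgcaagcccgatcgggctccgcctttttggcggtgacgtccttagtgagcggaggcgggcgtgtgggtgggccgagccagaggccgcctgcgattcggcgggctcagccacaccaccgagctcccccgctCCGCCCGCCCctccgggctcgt
Acot9: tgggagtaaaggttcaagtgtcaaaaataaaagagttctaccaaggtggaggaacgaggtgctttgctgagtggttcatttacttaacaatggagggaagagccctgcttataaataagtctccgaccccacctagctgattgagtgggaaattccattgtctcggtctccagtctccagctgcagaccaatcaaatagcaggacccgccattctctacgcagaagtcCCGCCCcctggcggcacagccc
Acot2: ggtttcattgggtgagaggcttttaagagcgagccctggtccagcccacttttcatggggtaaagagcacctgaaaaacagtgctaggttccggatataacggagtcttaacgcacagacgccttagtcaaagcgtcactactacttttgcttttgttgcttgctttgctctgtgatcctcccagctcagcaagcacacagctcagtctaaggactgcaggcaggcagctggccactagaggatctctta
Acot1: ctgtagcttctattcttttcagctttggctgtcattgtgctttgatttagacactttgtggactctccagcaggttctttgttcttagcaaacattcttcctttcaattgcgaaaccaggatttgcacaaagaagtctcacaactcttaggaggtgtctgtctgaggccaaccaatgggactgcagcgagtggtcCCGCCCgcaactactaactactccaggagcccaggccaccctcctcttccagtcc
The Acsl4 stretch had a GC content of 70.8%, against 50.4% for Acot9, 50.4% for Acot2, 48.8% for Acot1 and a median of 52.4% over 32851 mouse promoter stretches of the same length. It held 2 GC boxes that overlap, Acot9 and Acot1 held 1 each, and Acot2 held none. Over all members, 9 of 12 promoter entries (9 genes had at least 1 entry) held a GC box on either strand, a motif found in 32.7% of all stretches. The nuclear receptor half-site AGGTCA was in 1 entry, of Acsl6, against 14.0% of all stretches. The direct repeat to which PPAR and RXR bind as a pair, searched as 2 copies of AGGNCA with 1 base between them on either strand, was in 0 of 12 entries and in 0.338% of all stretches. Acot13 is not among the entries. The presence or absence of these letters in such a short window is a description of the sequence only.

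No member passed the test on 4 arrays, which asked for an adjusted p under 0.05 and a fold of at least 1.6 in limma. Among all 13705 tested genes, 0% passed it as well. Of the 10 members, 3 (Acsl4, Acot2 and Acot9) were higher in palmitate-treated cells with an unadjusted p under 0.05 in limma, and 0 were lower with such a p. The share over all tested genes at this limit was 24.2%, made up of 10.9% higher and 13.4% lower. Acot2 was among the tested genes only through the palmitate channel. The same 3 members had a ratio above 0 on 4 of 4 arrays, which held for 15.6% of all tested genes. In 2 members, Acsl4 and Acot9, the lowest palmitate level lay above the highest control level, as it or the converse did in 13.9% of all tested genes. With 10 genes, each of these shares rests on 2 or 3 of them. Without replicate 1, an adjusted p under 0.05 in limma was reached by 2 members in the higher direction (Acsl4 and Acot9), against 8.76% of all tested genes, and by 1 in the lower direction (Acot13), against 9.84%. Over all arrays used, the 7 members other than Acsl4, Acot2 and Acot9 had mean log2 ratios between -0.26 and 0.16.

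**Figure D1:**
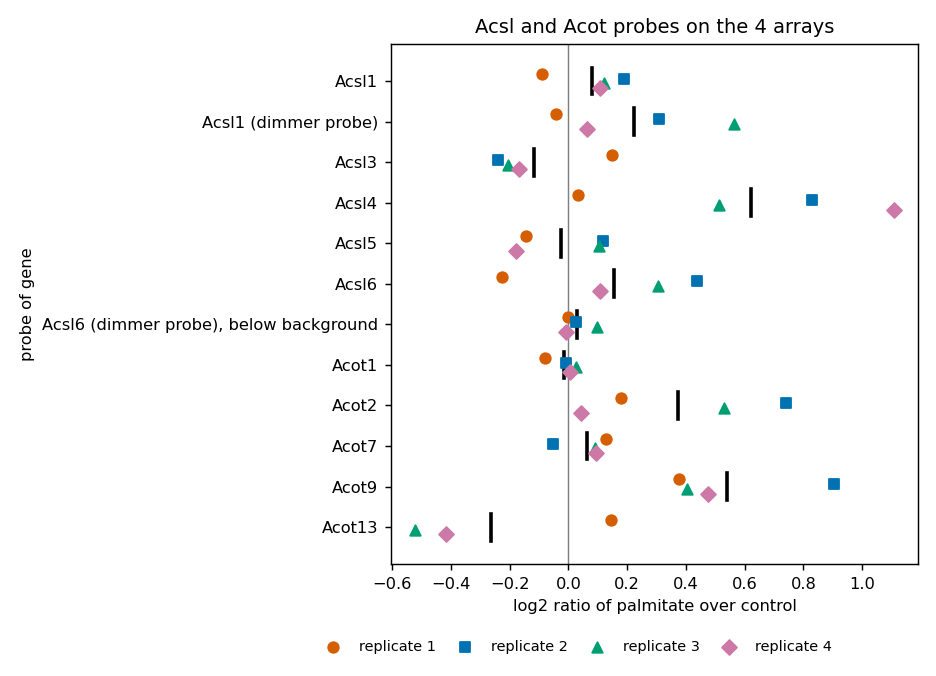
Log2 ratio of palmitate over control (horizontal axis) for each of the 12 probes of the 10 genes (vertical axis); each symbol is 1 array and each black bar the mean over arrays. Acsl4 and Acot9 lie to the right of 0 on all 4 arrays, as does Acot2, which was tested only through the palmitate channel. For both Acsl1 probes, for Acsl3 and for the Acsl6 probe above background, replicate 1 lies on the other side of 0 from replicates 2 to 4.

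Acsl4, which prefers arachidonate and other polyunsaturated fatty acids and passes them to membrane phospholipids, had the highest ratio of the 10 genes. Its log2 level (log2 of the normalized spot intensity) in control replicates 1 to 4 was 13.70, 13.44, 13.63 and 13.64, and in the palmitate cultures of the same arrays it was 13.74, 14.26, 14.14 and 14.75. Every palmitate culture was above every control culture, but in replicate 1 the distance was slight. The log2 ratios were 0.032, 0.83, 0.51 and 1.11, with a mean of 0.62 ± 0.46 (SD, n = 4 arrays), a fold of 1.54. The 95% confidence interval of the mean was 0.20 to 1.04 in limma, with an unadjusted p of 0.0110 and an adjusted p of 0.138. Of all tested genes, 98.8% had a lower mean ratio. Without replicate 1 the mean was 0.82 ± 0.30 (SD, n = 3), and the adjusted p in limma was 0.00982. Acsl4 then passed both limits, as did 2.01% of all tested genes in the same direction, but that array was singled out by these same ratios. Without replicate 2, 3 or 4 the adjusted p was 0.502, 0.342 and 0.341. Centring the arrays on their median in place of loess gave a mean of 0.94, on a scale where the median of all probes was 0.18.

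Acsl3, the closest relative of Acsl4, acts on the endoplasmic reticulum and on lipid droplets. Its log2 level in control replicates 1 to 4 was 12.26, 12.10, 12.40 and 12.36, against 12.41, 11.85, 12.19 and 12.19 under palmitate, and these ranges overlapped. The ratios were 0.15, -0.24, -0.20 and -0.17, with a mean of -0.12 ± 0.18 (SD, n = 4). The interval reached from -0.35 to 0.11, and the adjusted p in limma was 0.505. Replicates 2 to 4 all lay below 0, and their mean was -0.20 with an adjusted p of 0.146. On these 3 arrays Acsl4 and Acsl3 thus lay on opposite sides of 0.

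Acsl1, the main synthetase of oxidative muscle, heart and fat, had 2 tested probes. The log2 level of the brighter probe ranged from 11.04 to 11.31 in control and from 11.08 to 11.41 in palmitate cultures, so the groups overlapped. Its ratios were -0.092, 0.19, 0.12 and 0.11, and the mean of 0.082 ± 0.12 (SD, n = 4) had an interval of -0.12 to 0.28 and an adjusted p of 0.593 in limma. Leaving out replicate 1 gave a mean of 0.14 and an adjusted p of 0.303. The dimmer probe gave ratios of -0.042, 0.31, 0.56 and 0.064, and a mean of 0.22 ± 0.27 (SD, n = 4) with an adjusted p of 0.314, and 0.31 without replicate 1. Both probes were above 0 on 3 of 4 arrays and below it in replicate 1.

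Acsl5, found on mitochondria and the endoplasmic reticulum and best known from intestine and liver, had a mean ratio near 0. Its control levels lay close together, at 12.29 to 12.34 on the log2 scale, and its palmitate levels spread to both sides of them, from 12.12 to 12.46. The ratios were -0.15, 0.12, 0.10 and -0.18, and their mean of -0.025 ± 0.16 (SD, n = 4) had an interval of -0.24 to 0.19. The mean without replicate 1 was 0.015. Replicates 1 and 4 were below 0 and replicates 2 and 3 above it. Any mean change beyond a log2 of 0.24 in either direction lay outside this interval.

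Acsl6, known for loading docosahexaenoate in brain, was dim. Its brighter probe had log2 levels of 7.66 to 7.76 in control and 7.51 to 8.10 in palmitate cultures, while its other probe was well above background in neither channel of any array and has no fold. The ratios of the brighter probe were -0.23, 0.44, 0.31 and 0.11, with a mean of 0.16 ± 0.29 (SD, n = 4) and an adjusted p of 0.484 in limma. Without replicate 1 the mean was 0.28 and the adjusted p 0.0929. With the deposited background-subtracted signals the mean was 0.48, and with no background correction it was 0.43. Why these differ from 0.16 was not tested.

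**Figure D2:**
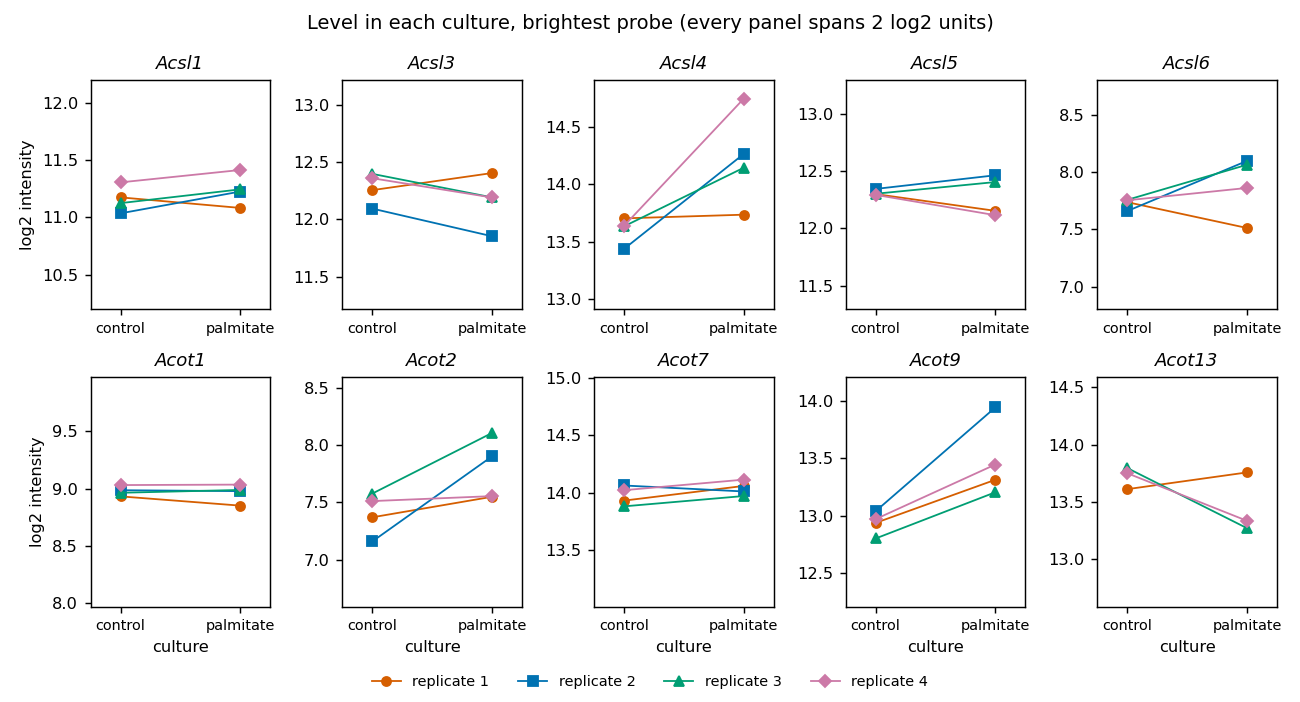
Log2 normalized intensity of the brightest probe of each gene in the control culture and in the palmitate culture of the same array; a line joins the 2 cultures of 1 array, and every panel spans 2 log2 units. The Acsl4 and Acot9 lines all run upward and end above every control value, whereas the Acot1 and Acot7 lines stay nearly level.

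Acot9, a thioesterase of the mitochondrial matrix and inner membrane, had the lowest p of the 10 genes. Its log2 level in control replicates 1 to 4 was 12.94, 13.04, 12.80 and 12.97, and 13.31, 13.94, 13.20 and 13.45 in palmitate cultures. The groups did not overlap, and replicate 2 showed the widest step. The ratios were 0.38, 0.91, 0.40 and 0.48, with a mean of 0.54 ± 0.25 (SD, n = 4 arrays), a fold of 1.45. The interval was 0.27 to 0.81, with an unadjusted p of 0.00246 and an adjusted p of 0.118 in limma. Of all tested genes, 98.1% had a lower mean ratio. Without replicate 1 the mean was 0.59 ± 0.27 (SD, n = 3) and the adjusted p in limma was 0.0199, while the fold stayed below 1.6. Without replicate 2, 3 or 4 the adjusted p was 0.440, 0.339 and 0.308, and with median centring the mean was 0.85. Unlike Acsl4, Acot9 had its ratio in replicate 1 close to those in replicates 3 and 4.

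Acot2, which hydrolyses long-chain acyl-CoA in the mitochondrial matrix, was dim and passed the filter only through the palmitate channel, where it was well above background on 4 arrays, against 3 in the control channel. Because a gene that enters in this way is likely to have a ratio above 0, its direction is a description. Its log2 level in control replicates 1 to 4 was 7.37, 7.16, 7.58 and 7.51, and 7.55, 7.90, 8.11 and 7.56 under palmitate. The groups overlapped, because the highest control culture lay above both replicates 1 and 4 of the palmitate group. The ratios were 0.18, 0.74, 0.53 and 0.043, with a mean of 0.37 ± 0.32 (SD, n = 4), a fold of 1.30. The interval was 0.055 to 0.69, the unadjusted p was 0.0280 and the adjusted p 0.185 in limma. The deposited background-subtracted signals gave a mean of 0.98 with an adjusted p of 0.118, but in replicate 2, which had the widest ratio there too, the control spot was not well above background and its ratio has no exact size. Without replicate 1 the mean was 0.44 with an adjusted p of 0.0733.

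Acot1, the cytosolic counterpart of Acot2 and a known PPAR target in liver and heart, was above background in all 8 cultures. Its log2 levels were 8.93 to 9.03 in control and 8.85 to 9.03 in palmitate cultures. The ratios of -0.081, -0.0079, 0.025 and 0.0040 were the most even of all members, with a mean of -0.015 ± 0.046 (SD, n = 4). The interval of -0.19 to 0.16 held no change as large as a fold of 1.6. Leaving out replicate 1 gave a mean of 0.0069. The sign of so small a mean also depended on the processing, as the closing section gives.

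Acot7, the main thioesterase of brain cytosol, had ratios nearly as even. Its levels were 13.88 to 14.06 on the log2 scale in control and 13.97 to 14.11 in palmitate cultures. The ratios were 0.13, -0.052, 0.090 and 0.092, with a mean of 0.065 ± 0.080 (SD, n = 4), an interval of -0.12 to 0.25 and an adjusted p of 0.651 in limma. Leaving out replicate 1 gave a mean of 0.043.

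Acot13, a small thioesterase on mitochondria that binds the phosphatidylcholine transfer protein, had the lowest ratio of the 10 genes and only 3 usable arrays. The spot of replicate 2 was marked as an outlier by the image software and was left out. The log2 levels in control replicates 1, 3 and 4 were 13.61, 13.80 and 13.75, and 13.76, 13.27 and 13.34 under palmitate. Replicate 1 was higher under palmitate, and replicates 3 and 4 were lower by a wide step. The ratios were 0.15, -0.52 and -0.42, with a mean of -0.26 ± 0.36 (SD, n = 3 arrays). The interval of -0.66 to 0.13 included 0, and the adjusted p in limma was 0.373. Only 14.4% of tested genes had a lower mean ratio. Without replicate 1 the mean over the 2 remaining arrays was -0.47 with an adjusted p of 0.0423 in limma, where the spread is assumed to be like that of other genes. With the marked spot kept, the mean was -0.25.

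**Figure D3:**
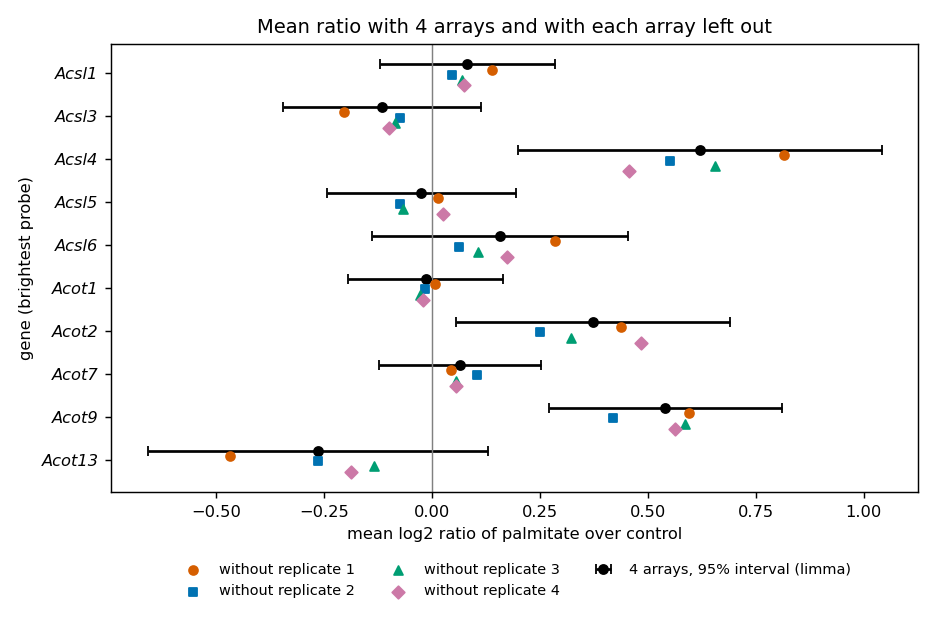
Mean log2 ratio of palmitate over control for the brightest probe of each gene, with the 95% confidence interval from limma over all arrays used (black) and the mean with each replicate left out (coloured symbols). The means of Acsl4 and Acot9 stay to the right of 0 whichever replicate is left out. The mean of Acot2 does so too, but it was tested only through the palmitate channel, so its direction is a description. Leaving out replicate 1 moves Acsl3 and Acot13 away from 0 to the left.

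Relatives were compared on the same array, as the difference of their log2 ratios, in 8 pairs set by subfamily. The exact sign-flip test over 4 arrays cannot give a two-sided p below 1 in 8, and the adjusted values over the 8 pairs were 0.333 or 0.5, so that no pair could pass. Acsl4 exceeded Acsl3 on 3 of 4 arrays, with differences of -0.12, 1.07, 0.72 and 1.28, a mean of 0.74 ± 0.61 (SD) and an interval of -0.24 to 1.71, and the mean without replicate 1 was 1.02. The difference of Acot2 and Acot1 was 0.39 ± 0.31 (SD) with an interval of -0.10 to 0.88, and it is a description only, since Acot2 was tested through the palmitate channel alone. Acot2 and Acot1 had 1 probe each, and cross-hybridisation between their transcripts was not tested. Acot9 exceeded Acot7 on 4 of 4 arrays, by 0.48 ± 0.33 (SD) with an interval of -0.043 to 0.99. Acot13 was below Acot9 on all 3 arrays that measured it, and the mean difference was -0.68 ± 0.39 (SD). Acsl5 was below Acsl1 on 4 of 4 arrays, by less, with a mean difference of -0.11 ± 0.12 (SD). The intervals of all 8 mean differences included 0. They are plain t intervals from the spread of each pair alone. The intervals of single genes come from limma, which also uses the spread of other genes, so their widths are not comparable.

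As a group the members lay close to the rest of the genes. Their median log2 ratio was 0.073, with 6 means above 0 and 4 below, against 0.0012 over all tested genes, of which 50.1% were above 0. The medians were 0.082 for the 5 synthetases and 0.065 for the 5 thioesterases. By replicate, the median over the 10 genes was 0.080, 0.19, 0.11 and 0.068.

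Genes that act beside the members were read from 5 lists, and no gene of any list passed the test on 4 arrays. The counts below at an unadjusted p stand beside 10.9% of all tested genes higher and 13.4% lower. The other acyl-CoA synthetases (19 genes, 11 tested, median log2 ratio -0.075) held 0 higher genes and 1 lower gene with an unadjusted p under 0.05. This was Slc27a3, a fatty acid transport protein with synthetase activity, at -0.26 ± 0.20 (SD, n = 4). None of its genes passed the adjusted p without replicate 1.

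The list of other thioesterases (17 genes, 11 tested, median 0.0095) held 2 higher and 3 lower at that limit. It was drawn up for acyl-CoA thioesterases but also holds enzymes that act on proteins, such as Ppt1 and Lypla2. Acot10 is an intronless copy of Acot9 that is nearly identical to it in sequence, and cross-hybridisation between their transcripts was not tested. Its ratios were -0.023, 1.51, 0.96 and 1.09, with a mean of 0.88 ± 0.65 (SD, n = 4) and an adjusted p of 0.131 in limma, and 0.00340 without replicate 1. In replicate 1 Acot10 was near 0 whereas Acot9 was at 0.38. Ppt1, the lysosomal enzyme that removes palmitate from proteins, was at 0.58 ± 0.25 (SD, n = 4) with an adjusted p of 0.118 in limma, and 0.0199 without replicate 1. The lower genes were Acot8, a peroxisomal thioesterase, at -0.33 ± 0.15, Lypla2, which also cleaves palmitate from proteins, at -0.27 ± 0.13, and Them4, named after its value was seen, at -0.30 ± 0.21 (SD, n = 4 each).

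Genes of acyl-CoA binding and handling (21 genes, 20 on the array, 18 tested, median -0.023) held 1 higher and 1 lower. The list mixes genes of different roles, among them Nudt8, Pank4 and Hnf4a, so its counts give no direction of coenzyme A supply. The adjusted p without replicate 1 was passed by 1 higher and 2 lower (Nudt8 and Acbd4), beside 8.76% and 9.84% of all tested genes. Acbd5, which tethers peroxisomes to the endoplasmic reticulum, was at 0.42 ± 0.14 (SD, n = 4) with an adjusted p of 0.118 in limma, and 0.0213 without replicate 1. Pank4 was at -0.49 ± 0.53 (SD, n = 4), with its 4 ratios at -0.98, -0.92, 0.026 and -0.11. Without replicate 1 it was at -0.33 with an unadjusted p of 0.108 in limma, and no longer counted as lower.

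Genes of acyl-CoA use (27 genes, 26 tested, median 0.12), with the carnitine shuttle genes Cpt2 and Slc25a20 among them, held 8 higher and 3 lower. The adjusted p without replicate 1 was passed by 6 higher and 4 lower, where 8.76% of all tested genes were higher and 9.84% lower. Cpt1a, which commits acyl-CoA to mitochondrial import, was at 1.27 ± 0.19, Acadl, a dehydrogenase of beta-oxidation, at 0.87 ± 0.46, and Agpat3, which acylates lysophosphatidic acid, at 0.51 ± 0.15 (SD, n = 4 each). The list's other dehydrogenases of this kind, named after their values were seen, did not share 1 direction. Acads was at -0.55 ± 0.33, Acadm at 0.23 ± 0.23 and Acadvl at 0.22 ± 0.28 (SD, n = 4 each). Elovl6, which elongates palmitoyl-CoA, was at -0.86 ± 0.34 (SD, n = 4) with an adjusted p of 0.118 in limma, and 0.00621 without replicate 1. Genes known to respond to PPAR (20 genes, 17 tested, median 0.22) held 7 higher and 0 lower, and 6 higher passed without replicate 1, beside the same 8.76%. Besides Angptl4, Cpt1a and Acadl they included Lpl, which releases fatty acids from lipoproteins, at 0.63 ± 0.26 (SD, n = 4). This list was written with earlier results of these arrays known and is no independent evidence of its direction. Of the members named above as PPAR targets, Acot1 was at -0.015 and Acsl1 at 0.082, with 0.22 for its dimmer probe. Acot2, the mitochondrial counterpart of Acot1, was at 0.37, but was tested only through the palmitate channel. Whether the members follow a PPAR response was not tested.

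**Figure D4:**
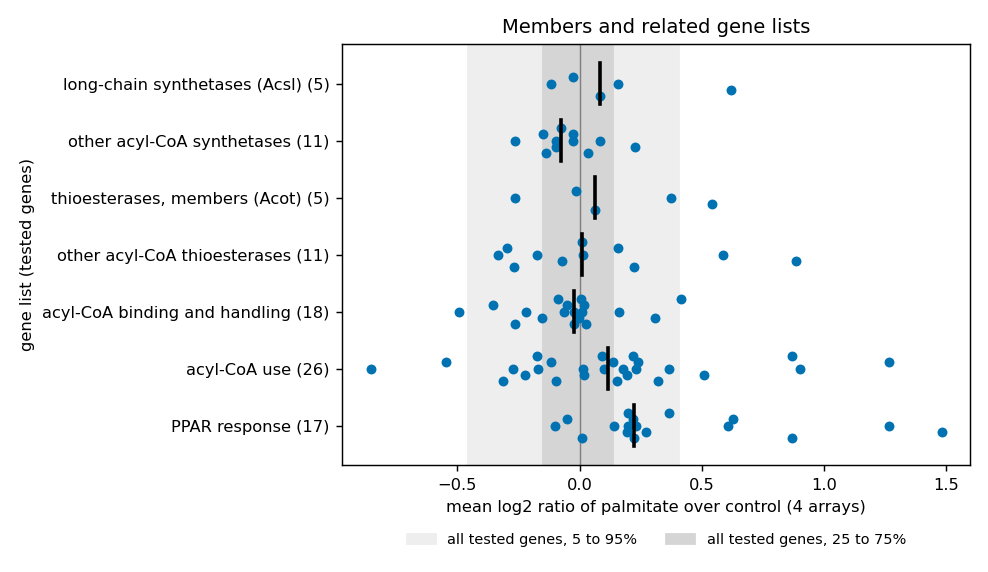
Mean log2 ratio of palmitate over control for each tested gene (points) of the 2 families and of the 5 related lists, with the median of each list (black bar) and the ranges of all tested genes from the 25th to the 75th percentile (dark band) and from the 5th to the 95th (light band). Acsl4 and Acot9, at 0.62 and 0.54, lie beyond the light band, and Acsl5 and Acot1, at -0.025 and -0.015, lie within the dark band.

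Over the 4 arrays, the genes nearest to Acot9 among 13633 with all 4 ratios were Nadk2, Mgst1 and Mrpl47, with root mean square differences in log2 ratio of 0.031, 0.043 and 0.048. The nearest to Acsl4 were Cavin1, Rrn3 and Rbm14, at 0.054, 0.054 and 0.075. No other member was among them. A match over 4 points among so many genes is a description only.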

How the data were processed

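RNA of 4 control and 4 palmitate cultures was hybridised to 4 two-colour Agilent arrays, and the authors extracted the spots with Agilent Feature Extraction 10.7.3.1. The deposited median spot and background signals are uncorrected intensity values, the deposited processed signals are intensity values with background removed and dyes normalized, and the deposited table holds log2 ratios that equal those of the processed signals within 3e-06. Deposited flags mark spots well above background and outliers. Median signals were corrected by normexp (offset 50) and normalized by loess within each array in limma 3.58.1 (R 4.3.3). Control and outlier spots had weight 0, and spots of a probe were averaged. Levels are separate-channel values after Aquantile normalization. In limma, the mean log2 ratio of each of 24169 probes was compared with 0, with Benjamini-Hochberg adjustment over these probes. The array pairs its 2 cultures. Each gene is represented by its brightest probe, and probe intensities are not compared between genes. The fit was tested on simulated ratios with the spread of replicates 2 to 4, which does not cover an array that stands apart like replicate 1. Genes, lists and tests were chosen with earlier results of these data known: all members, up to 4 genes per list with the lowest p (unadjusted, under 0.05), and the 3 genes nearest to the lowest-p synthetase and thioesterase. Alternatives changed the correction, normalization, values, filter, variance model, pairing, test, probe choice and replicates.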

Additional observations from a re-analysis of the deposited data

How the results depend on the processing

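Probes past the test numbered 0 of 24169 on 4 arrays. They numbered 13 with the processed signals and 13 with the deposited table (all higher), 2 under the coefficient of variation limit of the methods (taken over normalized separate-channel intensities), 2 with 1 probe per gene and 3 with the methods' t-test. Without the pairing by array (no replicate block) they numbered 26, of which 15 were higher and 11 lower. Leaving out 1 replicate gave 0 to 1308, the highest without replicate 1 (555 higher, 753 lower). Array quality weights, chosen after seeing the data, gave 755 (307 higher, 448 lower) and set replicate 1 to a weight of 0.445 against 0.929 to 2.06 for the others. Members past the test were 0 in all of these but 2, with 0 to 1 over the replicates left out and 1 with array weights. Both times the member was Acsl4, with an adjusted p of 0.00982 without replicate 1 and 0.0277 with array weights (means 0.82 and 0.80). Members at an unadjusted p under 0.05 were 3, and 2 to 5 over the replicates left out, while the share of all tested genes at that limit ran from 24.2% on 4 arrays to 36% without replicate 1 (5 members) and 11.5% without replicate 2 (2 members). With median centring 2 members and 3.04% of all tested genes were at that limit. Over all alternatives the adjusted p ranged from 0.00982 to 0.799 for Acsl4 and from 0.0199 to 0.799 for Acot9. The member median was 0.073, and 0.32 with median centring, where the median of all probes was 0.18. Acot1 turned above 0 with no background correction (0.036), the processed signals (0.034), the deposited table (0.034), median centring (0.23) and without replicate 1, and ranged from -0.028 to 0.0069 over the replicates left out. Acsl5 turned above 0 with the processed signals (0.034), the deposited table (0.034), median centring (0.27) and without replicate 1 (0.015) or 4, and ranged from -0.073 to 0.025 over the replicates left out. Acsl3 turned above 0 with median centring (0.18). The cause of these shifts was not tested. The other 7 members kept their direction under all alternatives that could be run. For Acot2, tested only through the palmitate channel, this direction is a description, and it could not be tested where both channels had to be above background. The number of arrays limits the precision.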
